A study of Caenorhabditis elegans with 2 samples.

Results

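The 129 nuclear genes that Ensembl release 115 annotates with the biotype snRNA on the C. elegans assembly WBcel235, the build that peak files call ce11, were examined for MXL-1-GFP ChIP-seq peaks. They were taken by biotype alone, with no peak value, from 46890 nuclear genes. The chromatin came from whole hermaphrodites of strain OP537 (unc-119(tm4063) III; wgIs537), which carry a transgene for MXL-1 with GFP and FLAG at its C terminus. Young adults were taken at 67 h after synchronisation, for which L1 larvae from bleached animals were starved, and DNA was recovered with an anti-GFP antibody from 2 biological replicates. All animals share this 1 genotype, stage and antibody, so conditions cannot be compared, and the labels do not state which sequence drives the transgene. A whole-animal preparation also merges all tissues.

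Small nuclear RNAs are short, untranslated RNAs that join Sm or LSm proteins to form the particles of the spliceosome. In nematodes most pre-mRNAs are also trans-spliced: a spliced leader is donated by the SL1 RNA (sls-1 genes) or, mainly to downstream genes of operons, by SL2 RNAs (sls-2 genes), and SmY RNAs (smy genes) are bound by Sm proteins and are thought to act in the same process. Promoters of snRNA genes carry a proximal sequence element bound by the SNAPc complex, and those read by RNA polymerase III also hold a TATA box. MXL-1 resembles the mammalian factor Max, pairs with the Mad-like protein MDL-1 through a helix-loop-helix and leucine zipper region, and belongs to a class known for binding E-boxes such as CACGTG.

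RefSeq symbols were found by WormBase identifier for all 129 genes. The symbols name 12 sls-1, 18 sls-2 and 10 smy genes. The annotation gives no type to most others, so genes whose sequences were at least 80% identical, linked step by step, were put in numbered groups with no type given. These were group 1 with 23 genes, group 2 with 19, group 3 with 13, group 4 with 12, group 5 with 5 and group 6 with 2, and 15 genes had no relative at this identity. Group 3 holds sup-6 and sup-39, suppressor loci known from mutations in U1 snRNA genes, and its other members were 82.5% to 97.6% identical to sup-6. The 23 genes of group 1 had 8 distinct sequences of 93 to 108 bases, and 14 of the 23, W05B2.8 among them, were identical. Of these 14 copies 8 had no pooled summit, beside 82 of all 129 snRNA genes. The 8 are neighbouring copies and not separate cases: F54C8.8 and F54C8.9 lie inside F54C8.6, and K09B11.11 to K09B11.16 inside mam-3.

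W05B2.8 carried the strongest peak of all 129 genes. Its gene body is shared exactly by 3 of the 4 group 1 genes in the thresholded peak list, itself included, and by the 8 copies without a pooled summit, so promoters are printed to show how these genes differ upstream. Each line gives the 100 bases before the gene start, read from the RefSeq assembly of WBcel235 in the direction of transcription. Capitals mark, on either strand, 3 motifs counted further on: the word GGAACC, the TATA-box word TATATAA, and the E-box CACGTG.
W05B2.8 (chrIII:10989579-10989678, plus strand): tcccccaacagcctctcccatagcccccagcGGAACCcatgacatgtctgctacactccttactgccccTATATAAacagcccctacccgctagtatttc
F54D8.7 (chrIII:5080899-5080998, minus strand): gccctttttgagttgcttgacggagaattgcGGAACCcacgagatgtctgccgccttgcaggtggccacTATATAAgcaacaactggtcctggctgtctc
K09C6.12 (chrV:858991-859090, plus strand): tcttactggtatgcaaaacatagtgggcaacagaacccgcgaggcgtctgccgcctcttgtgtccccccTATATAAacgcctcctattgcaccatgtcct
Y9C9A.111 (chrIV:4930854-4930953, plus strand): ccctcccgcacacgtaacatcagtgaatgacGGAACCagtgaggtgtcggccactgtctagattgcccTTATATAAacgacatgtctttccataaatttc
Y17G9A.85 (chrIV:4864736-4864835, minus strand): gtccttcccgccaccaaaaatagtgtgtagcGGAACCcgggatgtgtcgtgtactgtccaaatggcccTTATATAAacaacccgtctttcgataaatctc
K09B11.11 (chrIV:13435887-13435986, minus strand): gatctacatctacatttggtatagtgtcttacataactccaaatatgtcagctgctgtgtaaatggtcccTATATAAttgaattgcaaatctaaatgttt
sup-6 (chrII:12944968-12945067, minus strand): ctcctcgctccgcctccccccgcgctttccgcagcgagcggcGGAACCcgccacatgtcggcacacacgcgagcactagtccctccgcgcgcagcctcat
sls-2.1 (chrII:5844765-5844864, plus strand): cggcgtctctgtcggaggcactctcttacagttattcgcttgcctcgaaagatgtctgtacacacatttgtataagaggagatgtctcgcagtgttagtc
sls-2.2 (chrII:5543498-5543597, plus strand): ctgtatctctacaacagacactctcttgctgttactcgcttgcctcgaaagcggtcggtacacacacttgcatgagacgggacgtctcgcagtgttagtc
sls-2.16 (chrIII:7141291-7141390, plus strand): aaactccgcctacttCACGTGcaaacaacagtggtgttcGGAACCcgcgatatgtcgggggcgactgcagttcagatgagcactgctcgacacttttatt
The first 4 promoters belong to the group 1 genes with a thresholded summit, and Y17G9A.85 had a summit in the pooled list only. K09B11.11, a group 1 gene with no summit in any list, keeps TATATAA near position −30 but has no GGAACC. Of the 50-base words in its gene body and 250 bp either side, 62.7% occur once in the nuclear genome. The group 1 genes R07E5.16, C28A5.7 and F32D1.12 also lack GGAACC and are not printed. They had pooled summits, with signals of 63.9, 53.2 and 37.7 in the same order, but no thresholded one. K09C6.12 holds only the shorter word GAACC.

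Summits were read from 4 deposited lists: the thresholded list with 557 entries, the pooled list with 14200 and the lists of replicates 1 and 2 with 20313 and 21882. The thresholded list was set by a reproducibility test on both replicates and the pooled list is labelled as holding background as well as peaks, per the file descriptions, so the lists are not independent and weak pooled entries need not be bound sites. A summit counted for a gene when it lay in the gene body or within 250 bp of it. The peak signal has no stated scale and is used only within a list, with ranks taken among nuclear peaks.

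In the thresholded list 10 of the 129 snRNA genes had a summit, 7.75% (exact 95% interval 3.78% to 13.8%), against 2.33% of all nuclear genes. In the pooled list there were 47, or 36.4% (28.1% to 45.4%), against 22.5% of all nuclear genes. Replicate 1 placed a summit at 52 genes (40.3%, against 28.3%), and replicate 2 at 51 (39.5%, against 30.2%). In each list the lower bound of the snRNA interval lay above the background share. These intervals cover the counting of genes only and treat neighbouring or identical copies as separate genes. Genes of other classes that are no longer than the longest snRNA gene had thresholded summits in 3.65% of 6602 cases (3.21% to 4.13%) and pooled summits in 16.9%. This set leaves out snoRNA, tRNA, miRNA, rRNA and piRNA genes, which the share over all nuclear genes includes.

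Among the small RNA classes, snRNA genes stood below snoRNA and tRNA genes in the thresholded list. There 63 of 346 snoRNA genes (18.2%; 14.3% to 22.7%) and 303 of 612 tRNA genes (49.5%; 45.5% to 53.5%) had a summit, and 3 of 261 miRNA genes (1.15%; 0.238% to 3.32%). In the pooled list the snRNA share of 36.4% stood beside 40.5% for snoRNA genes (35.2% to 45.8%), with intervals that overlap. The differences between classes were not tested.

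**Figure D1:**
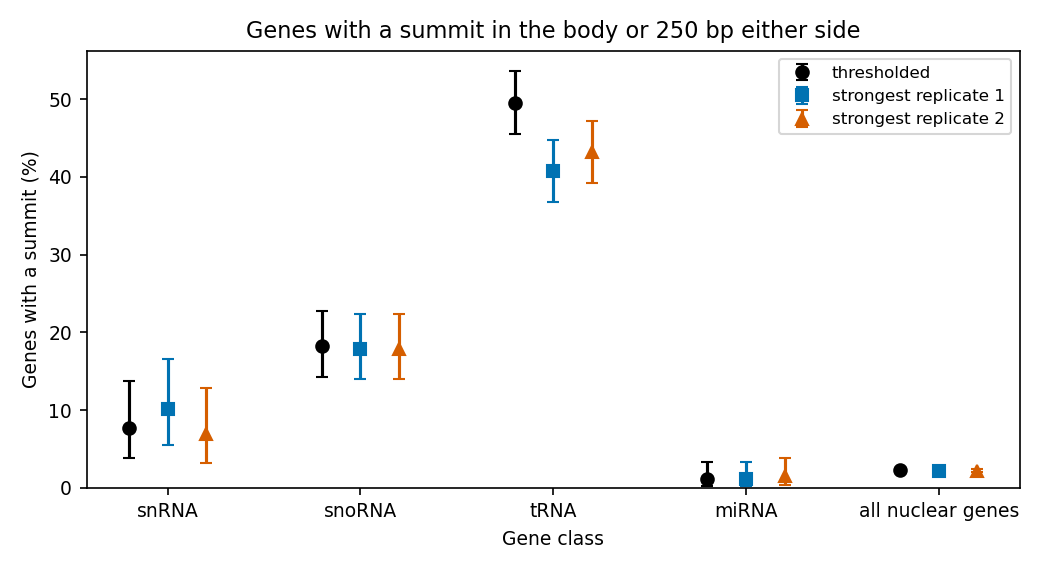
Percent of genes of each class with a summit in the gene body or 250 bp either side, in the thresholded list and in equally long lists of the strongest peaks of each replicate; bars are exact 95% intervals over genes. The 3 snRNA shares, 7.75%, 10.1% and 6.98%, lie between those of all nuclear genes and those of snoRNA genes.

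When each replicate list was shortened to its 557 strongest entries, 13 snRNA genes had a summit in replicate 1 (10.1%, against 2.16% of all nuclear genes) and 9 in replicate 2 (6.98%, against 2.23%). The 7 genes found in both made up 53.8% of the replicate 1 set and 77.8% of the replicate 2 set. The overlap over all nuclear genes was not computed, so these shares cannot be called particular to snRNA genes. All 7 were in the thresholded list, which rests on the same libraries. In the full replicate lists 38 genes had a summit in both, 14 in replicate 1 only, 13 in replicate 2 only and 64 in neither. These joint counts were not made over all nuclear genes, so they describe the snRNA genes without a background share. Over the 38 genes the strongest signals of the replicates had a Spearman rho of 0.59, a description over genes that share libraries.

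The 18 SL2 RNA genes supplied 5 of the 10 thresholded genes, and 12 of the 18 had a pooled summit. The exact 95% intervals of these shares of the 18 were 9.69% to 53.5% and 41.0% to 86.7%. The shares of all nuclear genes were 2.33% and 22.5%. At sls-2.4 (chrI:4172206-4172315) the pooled signal was 142 at nuclear rank 58, with rank 80 in replicate 1 and rank 57 in replicate 2. At sls-2.1 (chrII:5844865-5844974) the pooled signal was 136 at rank 65, with ranks 71 and 66 in replicates 1 and 2. The replicate ranks at sls-2.1 belong to different summits, at 67 bp from the start in replicate 1 and at −53 bp in replicate 2, which are 120 bp apart, and the pooled summit at −52 bp had no replicate 1 summit within 100 bp. At sls-2.2 (chrII:5543598-5543707) the pooled signal was 105 at rank 182, but replicate 1 gave rank 522 and replicate 2 rank 81. At sls-2.9 (chrI:13297877-13297985) the pooled signal was 89.0 at rank 284, with rank 1064 in replicate 1 and rank 175 in replicate 2. Replicate 2 held these 2 genes much higher than replicate 1 did. The order was the opposite at sls-2.16 (chrIII:7141391-7141499), with a pooled signal of 69.2 at rank 519, rank 515 in replicate 1 and rank 822 in replicate 2.

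The summit near sls-2.9 lay inside a tRNA gene, M01E5.t1, at position −152 from the start of sls-2.9. It was the only 1 of the 13 thresholded summits at snRNA genes within 250 bp of a tRNA gene, and none was within 250 bp of a snoRNA gene. The next nearest tRNA gene was 1748 bp from the summit at K09C6.12. By comparison, 269 of all 550 nuclear thresholded summits were within 250 bp of a tRNA gene.

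Group 1 had 4 thresholded genes and 10 with a pooled summit among 23. W05B2.8 (WBGene00014543, chrIII:10989679-10989780), which lies inside the coding gene dhc-4 on the same strand, had a pooled signal of 201 at rank 14, with a signal of 98.7 at rank 15 in replicate 1 and of 111 at rank 11 in replicate 2. This was the snRNA gene with the best rank in all 4 lists. F54D8.7 (chrIII:5080798-5080898) had a pooled signal of 115 at rank 135, rank 59 in replicate 1 and rank 263 in replicate 2. K09C6.12 (chrV:859091-859192), inside the coding gene K09C6.2, had a pooled signal of 80.4 at rank 367, with ranks 497 and 325. Y9C9A.111 (chrIV:4930954-4931055), inside Y9C9A.8, had a pooled signal of 78.7 at rank 377, with ranks 387 and 561. Each of the 4 was thus present in both replicates, and none of the remaining 19 group 1 genes passed a pooled signal of 63.9.

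Group 3 had 1 thresholded gene, sup-6 (WBGene00006315, chrII:12944803-12944967), with a pooled signal of 147 at rank 51. Replicate 1 gave a signal of 65.1 at rank 86 and replicate 2 a signal of 78.5 at rank 54. The related suppressor gene sup-39 (chrII:6968394-6968558) had a pooled signal of 51.1 at rank 1214, with rank 4894 in replicate 1 and rank 1145 in replicate 2. It stood below sup-6 in the pooled list and in both replicates, and the gene bodies are 97.0% identical. The gene mir-1831 is annotated inside sup-39, and 2 pooled summits, at ranks 1214 and 1846, lie in the windows of both. Both genes are therefore among the 47 with a pooled summit, while in the positions of the 57 summits each of these 2 is counted once, at mir-1831, whose start is nearer. The summit at rank 1846 is thus counted as downstream of a gene end, although it lies inside the body of sup-39.

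**Figure D2:**
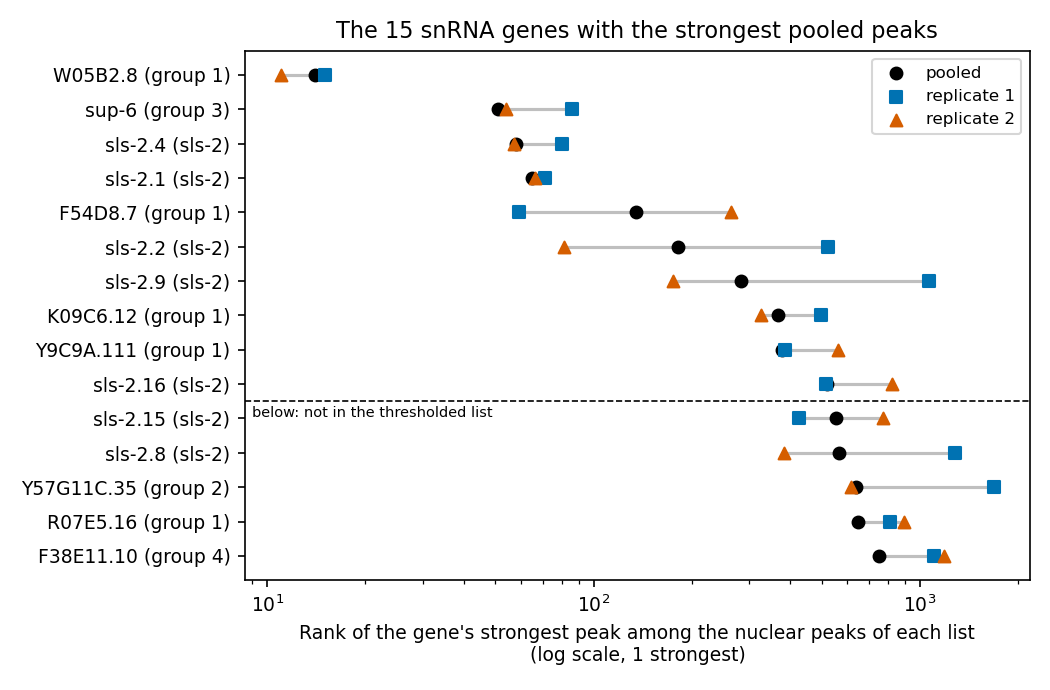
Rank of the strongest peak at each of the 15 snRNA genes with the highest pooled signal, on a log axis, for the pooled list (circles), replicate 1 (squares) and replicate 2 (triangles); grey lines join the 3 ranks. W05B2.8 sits between ranks 11 and 15 in all 3, while sls-2.2 and sls-2.9 span ranks 81 to 522 and 175 to 1064.

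The lowest signal in the thresholded list was 67.7. Just outside it stood the SL2 genes sls-2.15 (chrIII:11091010-11091121) with a pooled signal of 67.6 at rank 552 and sls-2.8 (chrIII:12250465-12250575) with 67.2 at rank 566. The summit at sls-2.8 lay 66 bp past the gene end and 19 bp from a start of the coding gene Y75B8A.23. Y57G11C.35, the strongest of group 2, followed with 64.3 at rank 636, then R07E5.16 of group 1 with 63.9 at rank 644 and F38E11.10, the strongest of group 4, with 60.4 at rank 748. These 5 genes had summits in both replicates, at ranks 427 to 1688 in replicate 1 and 384 to 1183 in replicate 2. These replicate ranks overlapped with those of the weakest thresholded genes.

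Groups without a thresholded summit had pooled signals in overlapping ranges. Group 2 had pooled summits at 6 of 19 genes, with signals from 29.7 to 64.3, and group 4 at 5 of 12, from 33.4 to 60.4. The smy genes had them at 4 of 10, from 28.1 to 41.2, led by smy-1 (chrIV:9511763-9511839) at rank 2626. Group 5 had 1 of 5, C52E4.8, whose pooled signal of 55.6 at rank 949 comes from a peak that also lies at position −625 from a start of snr-4, a gene for an Sm protein. Group 6 and sls-1 had none, and among the 15 ungrouped genes only mir-1831 and M163.13 had a pooled summit. With 0 of 12 sls-1 genes the exact 95% interval reaches 26.5%. Over all nuclear genes 22.5% had a pooled summit. The exact 95% interval of every group in this paragraph includes that share. It was 12.6% to 56.6% for group 2, 15.2% to 72.3% for group 4 and 12.2% to 73.8% for the smy genes.

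**Figure D3:**
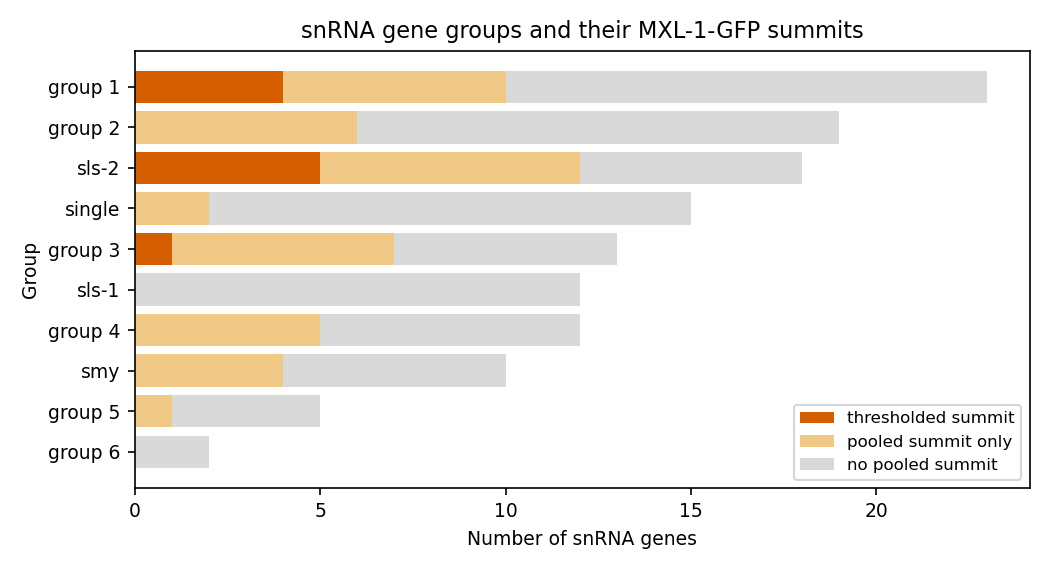
Number of snRNA genes per group with a thresholded summit, with a pooled summit only and with no pooled summit. Thresholded summits were found in sls-2 (5 genes), group 1 (4) and group 3 (1), and sls-1 had no pooled summit at any of its 12 genes.

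The 13 thresholded summits were placed mostly over or after the gene. Of these, 3 lay upstream of the gene start (23.1%; exact 95% interval 5.04% to 53.8%), 4 in the gene body and 6 downstream of the gene end, with a median position 87 bp after the start. The pooled list gave the same order over 57 summits: 15 upstream (26.3%; 15.5% to 39.7%), 17 in the body (29.8%; 18.4% to 43.4%) and 25 downstream (43.9%; 30.7% to 57.6%), with a median of 110 bp. A uniform spread over the windows would put 40.3% upstream, 19.4% in the body and as much downstream as upstream. The pooled upstream interval lies just below 40.3%, and the thresholded one includes it. The body and downstream intervals of the thresholded and pooled lists include the uniform shares. In replicate 1 the body interval (19.9% to 43.4%) lies just above 19.4%. All these intervals treat summits as separate, although 3 genes have 2 thresholded summits each. Replicate 1 had 24.6% of 65 summits upstream (14.8% to 36.9%) and replicate 2 had 31.3% of 64 (20.2% to 44.1%), an interval that includes 40.3%. Leaving out the genes that share a window with a tRNA, snoRNA or rRNA gene lowered the thresholded share to 16.7%.

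By group, the gene-body summits of the thresholded list were all in group 1, at 15 bp (W05B2.8), 53 bp (K09C6.12), 85 bp (F54D8.7) and 87 bp (Y9C9A.111) from the start. The SL2 genes had 4 of their 6 summits after the gene end, at 115 bp (sls-2.4), 127 bp (sls-2.16), 147 bp (sls-2.1) and 149 bp (sls-2.2), and 2 before the start, at −52 bp (sls-2.1) and −152 bp (sls-2.9). At 3 genes there was a pair of thresholded summits: at 15 and 214 bp at W05B2.8, at −10 and 195 bp at sup-6, and at −52 and 147 bp at sls-2.1. The summit at 214 bp at W05B2.8, 1 of the 6 beyond gene ends, was weak in replicate 1: the nearest summit there, at 301 bp, had rank 4686, and that of replicate 2, at 219 bp, had rank 365. No list holds nuclear summits less than 199 bp apart, and these pairs lie at or near that spacing, so their distance cannot be read as that of separate sites.

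Summit positions also moved between replicates. Over the 10 thresholded genes the strongest summits of the replicates were 5 to 138 bp apart, with a median of 50.5 bp. At W05B2.8 the summit was at 97 bp in replicate 1 and at 17 bp in replicate 2, and at F54D8.7 at 92 bp and −15 bp. At sls-2.2 it was at 149 bp and 105 bp. With a median gene length of 109 bp, the replicates therefore did not always put the summit on the same side of a gene boundary.

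**Figure D4:**
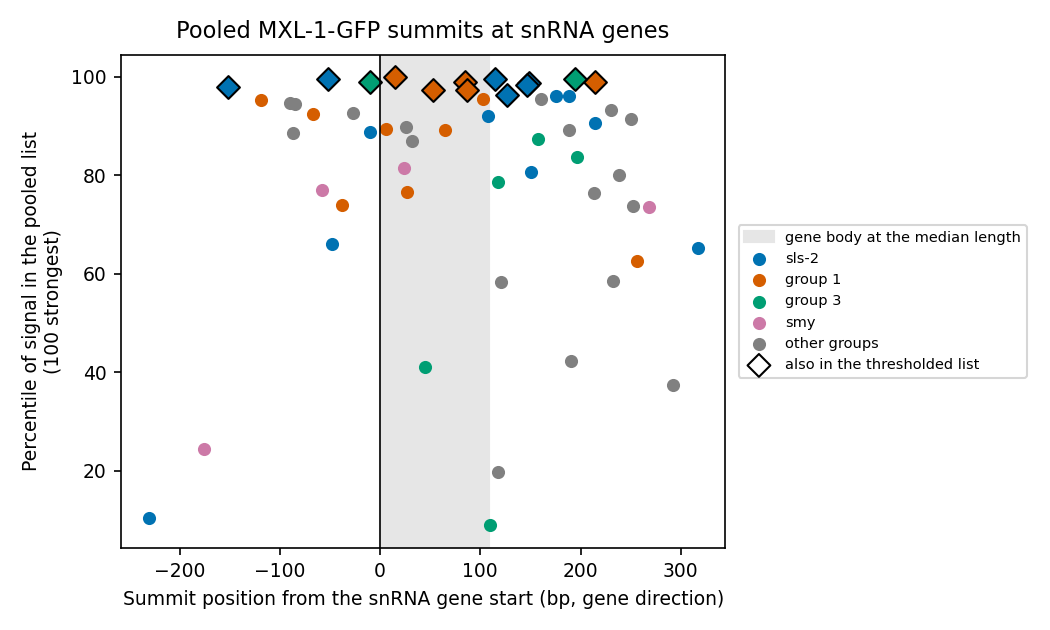
Position of each of the 57 pooled summits from the start of its snRNA gene, in bp along the gene, against its percentile by signal in the pooled list (100 strongest); diamonds are also in the thresholded list and the grey band is a gene of median length. Of the 57, 15 lie left of the start, 17 in gene bodies and 25 beyond gene ends, each by the snRNA gene to which it is assigned.

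By signal, the 13 summits had a median percentile of 74.6 among the 550 nuclear peaks of the thresholded list. In the strongest peaks of replicate 2 the corresponding median was 67.1, but in those of replicate 1 it was 29.9, so snRNA summits were above the middle of the list in replicate 2 and below it in replicate 1.

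Sequence repetition limits what peaks can show at these genes. The share of 50-base words found once in the nuclear genome was computed for each window. The 12 sls-1 genes lie at chrV:17118154-17132107, a stretch with no pooled entry, and their windows had a median share of 0% and a maximum of 31.5%. Among all 129 genes, 18 windows were at 50% or less, and none of these 18 had a pooled summit. How reads that match several places were handled is not given in the sources used here, so a missing peak at these genes cannot be told apart from missing uniquely placed reads. A unique window was no guarantee of a peak either, since 18 of the 27 windows that were fully unique had no pooled summit, smy genes among them. For scale, 82 of all 129 snRNA genes had no pooled summit, and 22.5% of all nuclear genes had one.

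**Figure D5:**
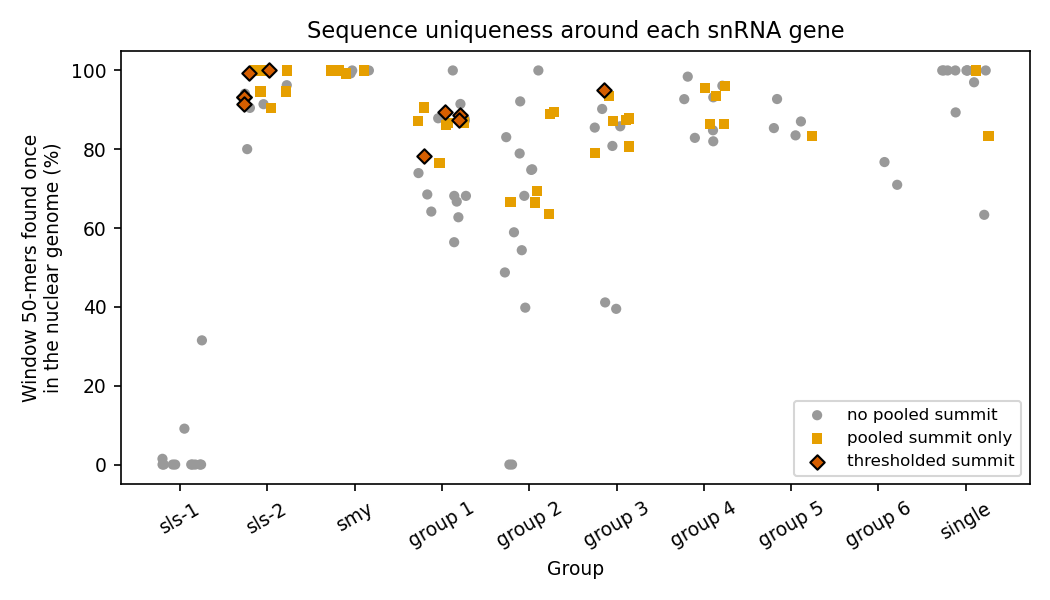
Percent of 50-base words in each gene's window that occur once in the nuclear genome, by group; points are genes, shifted sideways at random for display. All genes with a pooled or thresholded summit lie above 60%, the lowest being 63.6%, and the sls-1 genes lie at or below 31.5%.

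Within group 1 repetition and peaks moved together in part. The 4 thresholded genes had 78.3% to 89.5% unique windows and the 13 genes without a pooled summit had a median of 68.5%, with a range of 56.4% to 100% that spans the former. Around the body summits, within 100 bp, the unique share was 61.8% at W05B2.8, 59.2% at F54D8.7, 53.9% at Y9C9A.111 and 30.3% at K09C6.12. The part of sequence repetition in which copy carries the peak was not tested. The 6 summits downstream of gene ends had 83.6% to 100%.

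E-boxes were counted at summits and at gene starts, and for the 13 thresholded summits and 10 thresholded genes the counts cannot be told apart from the background shares. CACGTG was found within 100 bp of 0 of the 13 thresholded summits (upper exact 95% bound 24.7%), against 34 of all 550 nuclear thresholded summits, 6.18%. CACATG was found near 1, at sup-6, and CAAGTG near 1, at sls-2.16, with 12.5% and 10.0% over all thresholded summits. In the window from 250 bp before to 50 bp after the gene start, CACGTG stood in 10 of 129 snRNA promoters (7.75%), against 4.14% of all nuclear gene starts. Of these 10, 7 were among the 19 group 2 genes (36.8%; exact 95% interval 16.3% to 61.6%), an interval above 4.14%. Group 2 genes are close copies with a median identity of 98.9%, so they are not separate cases. No group 2 gene had a thresholded summit, with or without CACGTG. The windows of F15H9.5 and F15H9.6, 2 of the 7, had a unique share of 0%. Of the 10 thresholded genes 1 holds CACGTG in the same window around the start (10.0%, beside the same 4.14%), sls-2.16, as printed in its sequence above.

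The words that snRNA promoters share were of another kind. In the last 100 bases before the start, the commonest word of 6 bases on either strand was AACCCG, found in 45 of 129 genes (34.9%, against 1.71% of all nuclear genes). The word GTACAC was found in 43 genes (33.3%, against 2.02% of all nuclear genes). The word TGTCGG was found in 42 genes (32.6%, against 1.98%). The word GGAACC, whose end overlaps the start of the commonest word in promoters such as that of sup-6, stood in 32 genes (24.8%, against 1.37%). All 32 had it in the direction of transcription with its first base between −73 and −55. The word TATATAA, of the kind found in TATA boxes, stood in 18 genes (14.0%, against 3.52%), 15 of them in group 1 at −31 or −30.

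GGAACC was chosen after the promoters and peaks had been seen, and is given as counts only. In group 1 it was present in 3 of the 4 thresholded genes, in 3 of the 6 with a pooled summit only and in 0 of the 13 with no pooled summit. These 13 are largely neighbouring copies and not separate cases. K09B11.11 to K09B11.16 lie inside mam-3, F54C8.8 to F54C8.10 inside F54C8.6, and T20D3.12 and T20D3.13 inside coa-4. The windows of the 13 had a median unique share of 68.5%, and the part of repetition in these counts was not tested. The shorter word GAACC, which was not planned either, gave 4 of 4, 3 of 6 and 0 of 13. It adds K09C6.12, the thresholded group 1 gene without GGAACC, so its 4 of 4 follows from that choice. In the last 100 bases GAACC stood in 28.7% of the 129 snRNA genes, against 7.30% of all nuclear genes. Other groups did not repeat the order of group 1: in sls-2 the counts for GGAACC were 1 of 5, 3 of 7 and 1 of 6, and in group 3 they were 1 of 1, 2 of 6 and 5 of 6. TATATAA stood in 4 of 4, 4 of 6 and 7 of 13 group 1 genes, and K09B11.11 to K09B11.16 are among these 7.

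The chromosomal setting of the 10 thresholded genes was mixed. In 5 of them the gene lies inside a coding gene, against 63 of all 129. The nearest protein-coding starts were 148 bp (K09C6.2, at K09C6.12), 609 bp (Y9C9A.8, at Y9C9A.111), 617 bp (egg-5, at sls-2.4), 676 bp (ZK1248.17, at sls-2.1) and 826 bp (cox-6A, a cytochrome c oxidase subunit, at F54D8.7) from the snRNA gene start. They were 1266 bp (ins-13, at sls-2.2), 1806 bp (col-94, at W05B2.8), 2839 bp (sepa-1, at sls-2.9), 3113 bp (B0280.11, at sls-2.16) and 3291 bp (F58G1.7, at sup-6) away at the others. Apart from K09C6.12, whose thresholded summit lay 95 bp from a start of K09C6.2, each snRNA gene start lay at least 609 bp from a coding start. By chromosome, I, II, III, IV and V held 2, 3, 3, 1 and 1 thresholded genes of 16, 16, 13, 41 and 40 members, and X none of 3.

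Coding genes whose products act with snRNAs were counted by a summit from 1000 bp before to 200 bp after a transcript start. Of 62 such genes 4 had a thresholded summit, against 1.06% of all 19973 coding genes, and 29 had a pooled one, against 23.0%. The 4 were lsm-6 and lsm-8 (LSm proteins), snr-1 (an Sm protein) and prp-19 (a spliceosome-associated ubiquitin ligase), with signals of 70.0, 84.4, 77.7 and 77.1 and summits at −97, −684, −436 and −631 bp from the start in the same order. Of these summits 0 lay within 250 bp of a tRNA gene. The Sm and LSm list had 3 of 14 thresholded and 9 of 14 pooled, and the other spliceosomal proteins 1 of 21 and 10 of 21. SNAPc genes had 0 of 8 thresholded and 3 of 8 pooled, Integrator genes 0 of 11 and 5 of 11, the trans-splicing genes sna-1 and sna-2 none in either list, and RNA polymerase III and TBP genes 0 of 6 and 2 of 6.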

How the data were processed

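Peak lists of MXL-1-GFP ChIP-seq on ce11 (WBcel235) were used as deposited by the authors, for 2 biological replicates of 1 group. The deposited signal value (column 7) has no stated scale. The −log10 q column, as deposited by the authors, was not used to rank. Which aligner and peak caller made them, and at what read depth, is not given in the sources used here, so depth per sample is unknown and the intervals cover the counting of genes or summits only. No control list was analysed here. Mitochondrial peaks were left out of ranks, which leaves 550 nuclear peaks in the thresholded list.

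Genes came from Ensembl release 115 and names and sequences from RefSeq. A gene counted as having a summit when any lay in its body or within 250 bp, so 1 summit can count for overlapping genes. For summit counts and positions, each summit was assigned once, to the snRNA gene with the nearest start. Assignment was tested on simulated summits. Intervals are exact Clopper-Pearson (scipy 1.17.1), and groups used Biopython 1.88 global alignments and single linkage at 80% identity. Named are all genes with a thresholded summit, the 5 strongest without one, the strongest of each annotated type and related coding genes with a thresholded summit; other genes were named after their values were seen. Members and lists were chosen with earlier results of these data known. With 1 group, no test between conditions was made. Alternatives changed the window, the peak placement, the list, the replicate and the members. Gene body sequences are not reported here.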

Additional observations from a re-analysis of the deposited data

How the results depend on the processing

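The count of 10 snRNA genes stayed between 9 and 13 under the other windows, the peak-overlap rule, single replicates, removal of genes near other small RNA genes and merging into loci. It fell to 6 with the stronger 278 thresholded peaks and rose to 19 with the 1114 strongest pooled peaks, where the number of summits rose from 13 to 23. Both follow from the length of the list. The median percentile was 29.9 to 67.1 with 1 replicate left out. The median summit position was 115 bp with the stronger 278 peaks and 61.5 to 93 bp with 1 replicate left out. The upstream share was 18.2% with a 100 bp window, 34.8% with 1114 pooled peaks, 16.7% without genes near other small RNA genes and 26.7% to 33.3% with 1 replicate left out. The cause of these shifts was not tested. Of 41 alternative values, 31 stayed within the spread between replicates or within 1.5 times the count. That spread is the standard deviation of the 2 single-replicate values, which are themselves among the 41. For the median percentile it was as wide as 26.4 points, so the tally is a description and no measure of stability. No median position changed sign. No paired analysis was possible because there is 1 group. Peak lists without read counts limit the precision of each signal.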

Other observations

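A further 21 snRNA genes had a summit in a replicate list but none in the pooled list. Their ranks were 4752 to 20241 at the 12 with a replicate 1 summit and 4437 to 20636 at the 13 with a replicate 2 summit. In all, 61 of the 129 genes had no summit in any of the 4 lists. The matching shares over all nuclear genes were not computed.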
